A study of Homo sapiens with 6 samples.

Results

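The interleukin-1 (IL-1) family was followed in the Cal27 line, which comes from a human squamous cell carcinoma of the tongue, through 10 genes: the ligands IL1A, IL1B, IL18, IL33 and IL36G, the receptor antagonist IL1RN, and the receptors IL1R1, IL1R2, IL1RAP and IL1RL1. They are 10 of the 30947 genes in the deposited count table, found by symbol, and each symbol matched 1 gene. The genes were selected on values of the comparison described here, with the change of several of them already known, so their own changes are given as a description. No p-value of a member is printed, and how many members crossed the threshold of the fit over all genes is counted only as part of that description. The control group was Cal27 with a negative control, which the labels call an empty vector in one place and a control sequence in another. The other group was Cal27 with lentiviral knockdown of DAZAP1, an RNA-binding protein of the hnRNP type. Both groups were the same line in the same medium, with 3 RNA sequencing libraries of total RNA each. The labels name neither the hairpin nor separate infections, so all knockdown libraries belong to 1 knockdown as far as is known, and the spread between libraries may be technical.

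IL-1 alpha and IL-1 beta bind the same receptor, IL1R1, which then recruits the accessory chain IL1RAP and signals through MYD88 and IRAK kinases to NF-kB. IL1RN occupies IL1R1 without signalling, and IL1R2 binds the ligand but lacks the intracellular signalling domain, so it acts as a decoy. IL-33 uses IL1RL1 (also called ST2) with IL1RAP, the IL-36 cytokines use IL1RL2 with IL1RAP, and IL-18 uses IL18R1 with IL18RAP. Squamous epithelium is known for holding a store of IL-1 alpha, which is released when cells are damaged, while IL-1 beta and IL-18 are cleaved by caspase-1 before they act.

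Library totals ran from 16333542 to 18955230 counts. DAZAP1 had 262.0, 277.4 and 256.5 CPM (counts scaled to a common library size with TMM factors) in control replicates 1 to 3 and 73.5, 77.7 and 67.4 CPM in the knockdown, a log2 fold change of −1.86 ± 0.038 (SE). All 8 markers of squamous epithelium were measured, with a summed level of 3653 to 3797 CPM in control and 4244 to 4309 CPM in knockdown libraries. Of these, 5 were called higher and 2 lower, which is 62.5% and 25%, beside 26.9% and 27.4% of all genes tested. KRT5 was at 1504 ± 34.0 CPM in control and 2143 ± 17.4 CPM in knockdown. SFN went the other way, at 846.2 ± 18.1 and 440.2 ± 7.69 CPM (± SD over 3 libraries each). Leukocyte markers summed to 11.2 to 15.5 CPM in control and 8.66 to 11.2 CPM in knockdown, and their defining gene PTPRC had 2, 0 and 0 counts in control and 0, 0 and 1 in knockdown. Most of that sum was CSF1R (10.01 ± 1.73 and 5.82 ± 0.282 CPM), while CD14 went the other way, from 22, 11 and 17 counts to 43, 44 and 31. Of 5 mast cell markers, HDC was the 1 in the table, with 1 count in 1 knockdown library. Of 6 fibroblast markers 4 were in the table, and their sum went from 10.2 to 13.5 CPM in control to 18.7 to 19.5 CPM in knockdown. Most of that sum was COL1A1 (9.35 ± 1.74 and 14.4 ± 0.405 CPM). Of the 4, 3 were called higher (75%, beside 26.9% of all genes tested). LUM, at 1.00 ± 0.522 and 0.87 ± 0.048 CPM, did not pass. Endothelial markers went from 13.9 to 16.7 CPM in control to 46.5 to 51.7 CPM in knockdown. Most of the endothelial sum was CDH5 (14.4 ± 1.58 and 48.3 ± 3.26 CPM, SD, n = 3 each), while PECAM1 had 0, 4 and 0 counts in control and 4, 6 and 10 in knockdown and VWF went the other way, from 26, 20 and 19 counts to 16, 4 and 16. The part of these markers in the results on the IL-1 family was not tested.

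Sequence upstream of the start sites is shown for the 4 members whose levels separated the groups, the neighbouring cytokines IL1A and IL1B and the receptors IL1R2 and IL1RL1. Each window is from RefSeq (GRCh38.p14), 250 bases before to 50 after the start site that lies nearest to the gene's edge in the count table, 5′ to 3′ on the strand of the gene. RefSeq windows were found for 9 of the 10 members, 18 windows in all, with IL18 not among them. Capitals mark matches, on either strand, to the AP-1 motif TGANTCA, the TATA box TATAAA and the C/EBP motif TTGCNNAA, and no marked matches overlap. The kappa B consensus was searched too.
IL1A, chr2:112784444-112784743, minus strand: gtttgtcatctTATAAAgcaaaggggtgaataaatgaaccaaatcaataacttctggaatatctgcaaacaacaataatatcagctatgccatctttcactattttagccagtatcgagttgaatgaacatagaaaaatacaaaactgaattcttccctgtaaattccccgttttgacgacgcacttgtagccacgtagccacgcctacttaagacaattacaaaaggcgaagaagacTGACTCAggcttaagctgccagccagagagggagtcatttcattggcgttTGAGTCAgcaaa
IL1B, chr2:112836730-112837029, minus strand: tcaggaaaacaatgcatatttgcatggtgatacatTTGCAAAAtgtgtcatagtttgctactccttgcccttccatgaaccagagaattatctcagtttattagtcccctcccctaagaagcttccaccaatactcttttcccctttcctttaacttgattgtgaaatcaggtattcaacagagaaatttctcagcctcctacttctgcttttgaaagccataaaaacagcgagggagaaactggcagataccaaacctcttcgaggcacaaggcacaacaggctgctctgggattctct
IL1R2, chr2:101991710-101992009, plus strand: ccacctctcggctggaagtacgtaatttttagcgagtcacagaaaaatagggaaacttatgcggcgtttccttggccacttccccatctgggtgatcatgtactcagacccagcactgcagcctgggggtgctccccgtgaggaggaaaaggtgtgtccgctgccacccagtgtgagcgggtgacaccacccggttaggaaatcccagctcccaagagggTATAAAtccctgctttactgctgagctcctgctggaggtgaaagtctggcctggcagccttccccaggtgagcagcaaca
IL1RL1, chr2:102311313-102311612, plus strand: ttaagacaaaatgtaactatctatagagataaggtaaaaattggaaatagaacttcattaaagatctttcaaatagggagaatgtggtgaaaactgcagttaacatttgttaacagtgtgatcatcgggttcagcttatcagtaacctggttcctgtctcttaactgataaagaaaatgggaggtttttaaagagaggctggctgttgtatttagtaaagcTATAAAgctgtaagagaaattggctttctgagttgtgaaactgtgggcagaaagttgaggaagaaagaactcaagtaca

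The IL1A window held AP-1 matches from −12 to −6 and from 38 to 44 relative to the start site, and a TATAAA from −239 to −234. The IL1B window held neither in exact letters, and had a C/EBP match from −215 to −208. It held cataaa, 1 letter from TATAAA, starting between 35 and 25 bases before the start. The search took exact letters only, so it does not show that IL1B lacks a TATA box. IL1R2 and IL1RL1, the receptors with the lowest levels in knockdown relative to control, each had TATAAA close to the start, from −30 to −25 in IL1R2 and from −29 to −24 in IL1RL1. Of 35116 RefSeq windows of the same length, 11.5% held TATAAA anywhere on either strand and 2.17% held it on the gene's strand starting 35 to 25 bases before the start. AP-1 matches were in 7.71%, C/EBP matches in 10.5% and kappa B matches in 5.91%, the last in none of the 4 windows shown. Windows not shown, of members whose libraries overlapped between the groups, held matches too. For IL1RN, 1 window held 2 TATAAA and another an AP-1 match, and for IL1R1, 1 window held 2 TATAAA and another a C/EBP match. Matches anywhere in a window were thus not confined to the members that separated the groups. Whether the TATAAA of IL1RN and IL1R1 start 35 to 25 bases before the start was not recorded. Nothing is read from the 2.17% beside IL1R2 and IL1RL1, since these genes were selected on values of this comparison. RefSeq gives IL1A, IL1R2 and IL1RL1 another start site each, and the counts do not separate starts. A match describes these letters and is not a binding site shown by these data.

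The libraries of the groups stood apart in 4 of the members. IL1RL1 and the decoy receptor IL1R2 were lower in the knockdown, IL1B was modestly lower, and IL1A was modestly higher. In bulk RNA, fewer cells that express a gene and less of its RNA per cell cannot be told apart. Of the 9 members with enough counts to test, 1 was higher and 3 were lower by edgeR's quasi-likelihood test, with p-values adjusted by Benjamini-Hochberg over all 15374 genes and a threshold of 0.05. That is 44.4% of them, beside 54.2% of all genes tested, 26.9% higher and 27.4% lower. In 4 of the 9 the libraries of the groups did not overlap, beside 58.9% of all genes tested. Nothing is read from these shares, since the members were picked with this comparison known. The median log2 fold change was −0.08 over the 9 members and 0.002 over all genes tested.

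**Figure D1:**
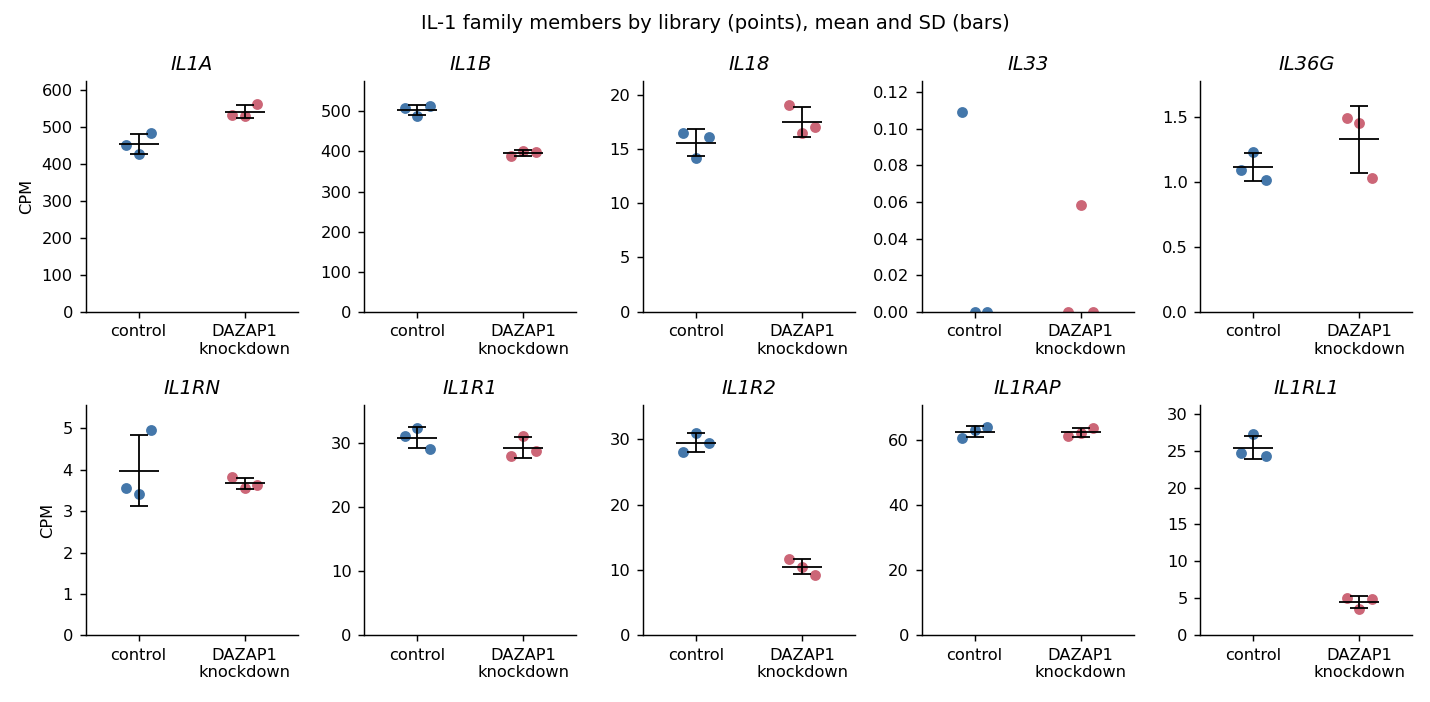
Level of each of the 10 members in CPM (vertical axes, each from 0) in 3 control and 3 knockdown libraries, as points, with mean and SD as bars except for IL33. IL1R2 and IL1RL1 lie far lower in all knockdown libraries, IL1B lies lower and IL1A higher without overlap, and the other panels overlap.

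Among the agonist ligands, IL1A (ENSG00000115008, chromosome 2, 112773925 to 112784493, minus strand, GRCh38.p13) was at 450.9, 428.1 and 483.2 CPM in control replicates 1 to 3 and at 533.5, 529.7 and 560.8 CPM in knockdown replicates 1 to 3. Every knockdown library was above every control library. The means were 454.1 ± 27.7 and 541.3 ± 17.0 CPM (± SD over 3 libraries each), which is a log2 fold change of 0.25 ± 0.041 (SE), or 1.19-fold.

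IL1B (ENSG00000125538, chromosome 2, 112829751 to 112836816, minus strand), the cytokine that needs cleavage to act, lies 45258 bp from IL1A on the same strand and moved the other way. It was at 508.4, 488.0 and 513.8 CPM in control and 388.0, 401.2 and 398.5 CPM in knockdown libraries. Every knockdown library was below every control library. The means were 503.4 ± 13.6 and 395.9 ± 6.98 CPM (± SD over 3 libraries each), which is a log2 fold change of −0.35 ± 0.024 (SE). The sum of both cytokines in CPM, which is not corrected for length, was 957.5 ± 40.5 in control and 937.2 ± 19.6 in knockdown, with overlapping libraries. Levels per gene length are FPKM, fragments per kilobase scaled to library size. They use 1 length per gene, implied as 2017 bp for IL1A and 3010 bp for IL1B, which is less than the genomic span. The ratio of IL1A to IL1B in FPKM was 1.32, 1.31 and 1.40 in control and 2.05, 1.97 and 2.10 in knockdown. The balance within the pair thus differed, while the sum in CPM did not separate the groups. In FPKM the mean of IL1A went from 222.3 in control to 271.7 in knockdown, and that of IL1B from 165.2 to 133.2. The rise exceeded the fall there, so the direction of the sum depends on the measure.

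The annotated 3′ UTRs of the pair hold AU-rich pentamers in similar number but differ in length, and so in density. ATTTA, a unit of elements known to shorten the life of cytokine messenger RNAs, occurs 6 times in the 610 nt of IL1B and 5 times in the 1152 nt of IL1A (GENCODE release 29, transcript with the longest coding sequence). By number, 23.47% of 12354 tested genes with a 3′ UTR held as many as IL1B and 27.95% as many as IL1A. The density of 9.84 per kb in IL1B was reached by 1.47% of these genes, and the 4.34 per kb of IL1A by 13.7%. Any part of these pentamers in the changes of the pair was not tested. IL1RL1 (116 nt), IL1RN (1145 nt) and IL18 (345 nt) held none. The median length over the tested genes was 1001 nt, so the UTRs of IL1RL1 and IL18 are short, with little room for a match. IL1R2 held 1 in 152 nt, which is 6.58 per kb, a density reached by 4.70% of genes. IL1R1, whose libraries overlapped between the groups, held the most, 8 in 3115 nt, while IL1RAP and IL33 held 4 each and IL36G 1. Members that separated the groups and members that did not both include genes with none and genes with 5 or more.

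IL18 (ENSG00000150782, chromosome 11), a cytokine that acts on T and NK cells, was at 16.5, 14.1 and 16.0 CPM in control and 19.1, 16.4 and 17.0 CPM in knockdown. The groups overlapped, with knockdown replicate 2 just under control replicate 1, and the log2 fold change was 0.17 ± 0.093 (SE). IL36G (ENSG00000136688, chromosome 2), an epithelial cytokine of barrier defence, had 20, 23 and 19 counts in control and 27, 25 and 17 in knockdown, with overlap and a log2 fold change of 0.26 ± 0.34 (SE). IL33 (ENSG00000137033, chromosome 9), the nuclear alarmin that binds IL1RL1, had 2, 0 and 0 counts in control and 0, 1 and 0 in knockdown. It was at or under a floor of 3 counts in every library and no fold is given. The ligand of the receptor that differed most was thus not measurable at this depth in either group.

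The antagonist IL1RN (ENSG00000136689, chromosome 2), which blocks IL1R1, was low throughout, with 65, 64 and 93 counts in control and 69, 61 and 60 in knockdown. Its levels were 3.98 ± 0.863 and 3.67 ± 0.138 CPM (± SD over 3 libraries each), which is a log2 fold change of −0.12 ± 0.19 (SE), and the groups overlapped. Without control replicate 3, its highest library, the log2 fold change was 0.07. Per gene length, IL1A and IL1B together exceeded IL1RN by a ratio of 327.0 ± 51.6 in control and 353.5 ± 17.6 in knockdown. The antagonist message was therefore far below the agonist messages in both groups, and that ratio overlapped between them.

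The signalling receptor and its partner did not separate the groups. IL1R1 (ENSG00000115594, chromosome 2) was at 31.1, 32.3 and 29.1 CPM in control and 27.9, 31.1 and 28.8 CPM in knockdown, a log2 fold change of −0.08 ± 0.068 (SE). The shared co-receptor IL1RAP (ENSG00000196083, chromosome 3) was at 60.7, 63.1 and 64.0 CPM in control and 61.2, 62.4 and 63.7 CPM in knockdown, a log2 fold change of −0.005 ± 0.048 (SE). Both overlapped between the groups.

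The decoy receptor IL1R2 (ENSG00000115590, chromosome 2, 101991960 to 102028544, plus strand) was lower in the knockdown. It was at 28.1, 31.0 and 29.5 CPM in control and 11.6, 10.5 and 9.32 CPM in knockdown, with no overlap. The means were 29.5 ± 1.48 and 10.5 ± 1.16 CPM (± SD over 3 libraries each), which is a log2 fold change of −1.49 ± 0.089 (SE), or 2.81-fold lower. The ratio of decoy to signalling receptor per gene length was 2.17, 2.31 and 2.44 in control and 1.00, 0.812 and 0.781 in knockdown.

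IL1RL1 (ENSG00000115602, chromosome 2, 102311502 to 102352037, plus strand) encodes both a membrane receptor for IL-33 and a soluble form that traps it, which gene counts do not separate. It had 453, 509 and 454 counts in control and 92, 61 and 82 in knockdown. These were 24.7, 27.2 and 24.3 CPM in control and 5.10, 3.56 and 4.96 CPM in knockdown, so that the highest knockdown library was far below the lowest control library. The means were 25.4 ± 1.56 and 4.54 ± 0.854 CPM (± SD over 3 libraries each), which is a log2 fold change of −2.48 ± 0.11 (SE), or 5.58-fold lower. On the log2(FPKM + 1) scale, which compresses low values, it was −1.58. In order of log2 fold change IL1RL1 was the number 15 fall among all genes tested, and IL1R2 number 91. These places are a description only, since the members were selected on values of this comparison. The ratio of IL1RL1 to its partner IL1RAP per gene length went from 0.816 ± 0.052 to 0.146 ± 0.028 (± SD over 3 libraries each). The gene overlaps IL18R1 on the same strand, so reads of either may have been assigned to the other.

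**Figure D2:**
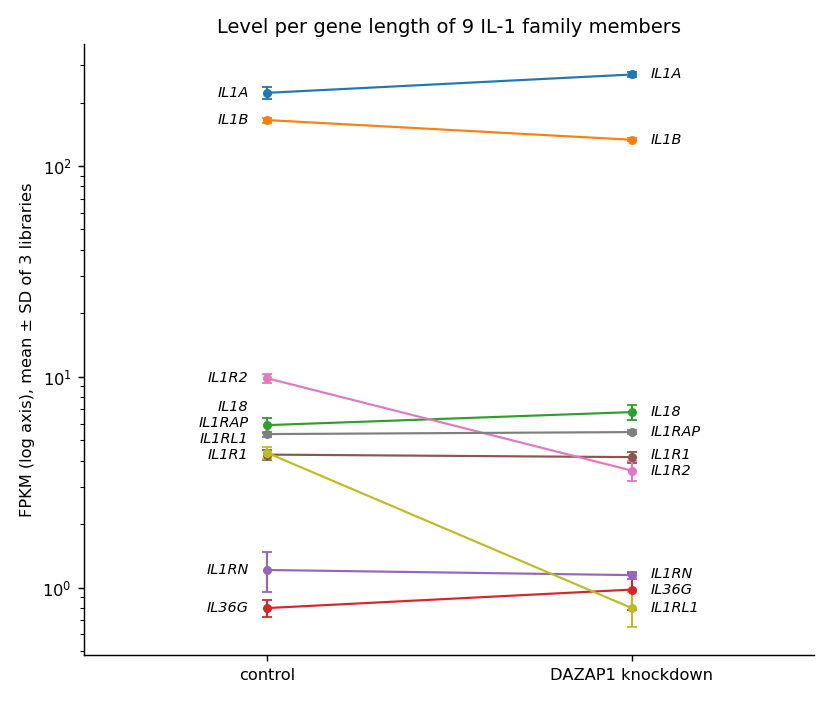
Level of 9 members per gene length (FPKM, log axis) in control and knockdown, as the mean with SD of 3 libraries. IL1A and IL1B stay far above the rest, and the lines of IL1R2 and IL1RL1 drop across those of other members.

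Per gene length, IL1A and IL1B were the leading messages of the family by a wide margin. In control they were at 222.3 ± 13.5 and 165.2 ± 4.43 FPKM (± SD over 3 libraries each), levels above those of 99.1% and 98.7% of all genes tested. IL1R2 followed at 9.86 ± 0.497 FPKM, then IL18 at 5.90 ± 0.469, IL1RAP at 5.35 ± 0.147, IL1RL1 at 4.36 ± 0.269 and IL1R1 at 4.28 ± 0.226 FPKM. IL1RN at 1.21 ± 0.263, IL36G at 0.80 ± 0.077 and IL33 at 0.011 FPKM came last. IL18 could not be ranked above IL1RAP, nor IL1RL1 above IL1R1, since their control libraries overlapped, and other neighbours in this order did not overlap. In knockdown the order was IL1A (271.7 ± 8.27 FPKM), IL1B (133.2 ± 2.33), IL18 (6.80 ± 0.537), IL1RAP (5.47 ± 0.108), IL1R1 (4.16 ± 0.238), IL1R2 (3.59 ± 0.399), IL1RN (1.15 ± 0.043), IL36G (0.98 ± 0.192) and IL1RL1 (0.80 ± 0.150). IL1R2 went from place 3 to place 6, where its libraries overlapped those of IL1R1, and IL1RL1 from place 6 to place 9, overlapping IL36G. The deposited FPKM divide by 1 length per gene, which implied 11560 bp for IL1RAP and 7124 bp for IL1R1, so levels of genes with long annotated models are set low if the cells use a shorter transcript.

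In the rest of the family the receptor genes IL1RL2 and IL18R1 fell. Of 12 such genes 11 were in the count table and 5 had enough counts to test, of which 1 rose and 2 fell. The share called, 60%, was near the 54.2% of all genes tested. IL1RL2, the IL-36 receptor, fell from 12.02 ± 1.69 to 6.65 ± 0.112 CPM (± SD over 3 libraries each; log2 fold change −0.85 ± 0.124 SE, adjusted p = 1.26e-08, edgeR). It had 232, 249 and 189 counts in control and 118, 116 and 110 in knockdown, without overlap. IL18R1, the ligand-binding chain of the IL-18 receptor, fell from 6.35 ± 0.79 to 4.69 ± 0.52 CPM (log2 −0.44, edgeR adjusted p = 0.0143), but did not pass without control replicate 3 (edgeR adjusted p = 0.0828) or knockdown replicate 3 (0.0833). It overlaps IL1RL1, so its value is uncertain. SIGIRR, a receptor that restrains IL-1 signalling, rose by 0.21 on the log2 scale (edgeR adjusted p = 0.0356) and lost the call with DESeq2, without a filter on low counts and in 3 of 6 fits that left out 1 library, with edgeR adjusted p up to 0.168. IL18BP, which neutralises IL-18, was at 0.16 and IL1RAPL1, a synaptic relative, at 0.33 on the log2 scale, and neither passed. IL36A, IL36B, IL37, IL1F10 and IL18RAP had at most 4 counts in any library, and the IL-36 antagonist IL36RN 3 to 13.

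**Figure D3:**
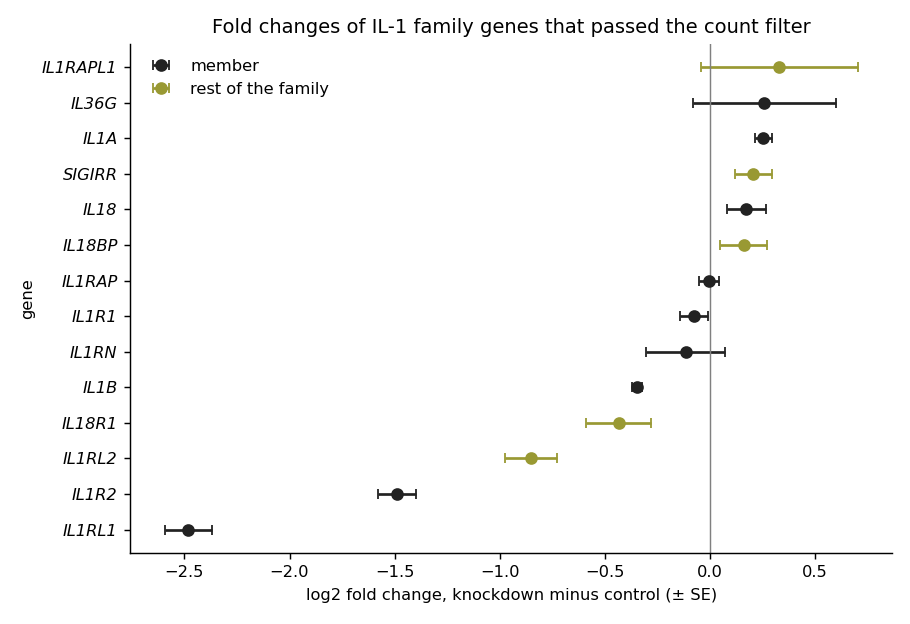
Log2 fold change (knockdown minus control, with SE) of 9 members in black and 5 further family genes in olive, ordered by size. IL1RL1, IL1R2, IL1RL2 and IL18R1 are the lowest, and IL1A lies above 0 with a small error while IL1RAPL1 and IL36G have wide errors.

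Most of these genes lie on chromosome 2 in a receptor block and a ligand block. In the receptor block, IL1R2, IL1R1, IL1RL2, IL1RL1 and IL18R1 follow each other on the plus strand, and IL1R1 was the 1 of these 5 that did not pass as lower. IL18RAP, the next gene of the block, had too few counts to test. Over all genes tested, 27.4% were lower. Nothing is read from the count in this block, since IL1R2 and IL1RL1 were selected on this comparison and IL18R1 overlaps IL1RL1. The non-coding gene LINC01127 (chromosome 2, 101962056 to 101987167, plus strand), which ends 4793 bp before IL1R2 on the same strand, fell with it. It had 81, 70 and 85 counts in control and 9, 13 and 22 in knockdown (log2 −2.30 ± 0.27 SE, adjusted p = 1.15e-11, edgeR), and was at −0.77 on the log2(FPKM + 1) scale. MAP4K4, a kinase gene whose end lies 97271 bp before IL1R2, rose from 361.8 ± 8.26 to 463.9 ± 4.79 CPM (± SD over 3 libraries each; log2 0.36, edgeR adjusted p = 1.24e-21). In the ligand block, IL1A, IL1B, IL36G and IL1RN had values on both sides of 0.

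**Figure D4:**
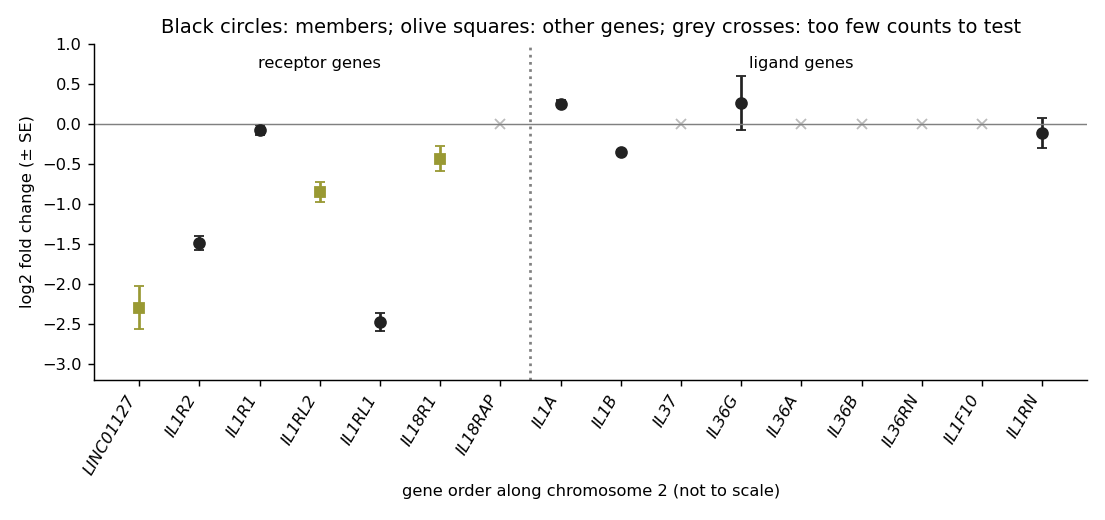
Log2 fold change (with SE) of family genes and LINC01127 in their order along chromosome 2, not to scale, with receptor genes left and ligand genes right of the dotted line. LINC01127, IL1R2, IL1RL2, IL1RL1 and IL18R1 lie below 0 and IL1R1 near 0, and crosses are genes with too few counts.

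Downstream of the receptors, adaptor and kinase genes were split. Of 22 genes of receptor-proximal signalling, 5 rose, 9 fell and 8 did not pass, with a median log2 fold change of −0.10. The share called was 63.6%, with 22.7% higher and 40.9% lower, beside 54.2%, 26.9% and 27.4% of all genes tested. IRAK2, a kinase of the receptor complex, rose from 33.7 ± 0.988 to 60.8 ± 3.42 CPM (± SD over 3 libraries each; log2 0.85 ± 0.056 SE, adjusted p = 1.61e-22, edgeR). The ubiquitin ligase genes PELI1 and PELI3 each rose by 0.23 and PELI2 by 2.14 on the log2 scale, PELI2 from 8, 10 and 6 counts to 28, 40 and 31. The size for PELI2 depends on the scale at this low level, with 1.28 on log2(FPKM + 0.1) and 0.30 on log2(FPKM + 1). PELI3 lost its call without knockdown replicate 1 or 3 (edgeR adjusted p = 0.0643 and 0.0537). MYD88, the adaptor shared by all signalling receptors of the family, fell from 43.4 ± 0.982 to 29.3 ± 1.67 CPM (log2 −0.57 ± 0.061 SE, adjusted p = 1.13e-12, edgeR). The ubiquitin-conjugating enzyme UBE2N (log2 −0.39), the inhibitor TOLLIP (−0.24) and the kinase IRAK1 (−0.12) fell too.

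Genes that process and release these cytokines, or shed their receptors, also changed both ways. Of 36 listed, 28 were tested, of which 11 rose, 8 fell and 9 did not pass, with a median log2 fold change of −0.007. That is 39.3% higher and 28.6% lower, beside 26.9% and 27.4% of all genes tested. The sheddases ADAM10 (log2 0.80 ± 0.027 SE) and ADAM17 (0.68 ± 0.040 SE) rose, from 195.3 ± 1.86 to 339.8 ± 3.42 CPM and from 74.5 ± 1.86 to 119.1 ± 3.24 CPM (± SD over 3 libraries each). ADAM17 is known to cleave IL1R2 from the cell surface. TMED10, a cargo receptor tied to secretion of IL-1 beta, rose by 0.30 and the protease cathepsin C (CTSC) by 0.28 on the log2 scale. Cathepsin S (CTSS, log2 −0.55), the calpains CAPN1 (−0.23) and CAPN2 (−0.23), proteases of which calpain cleaves IL-1 alpha, and the membrane channel PANX1 (−0.23) fell. CASP1, the protease that matures IL-1 beta and IL-18, was picked here after its value was seen, and rose by 0.14 on the log2 scale (edgeR adjusted p = 0.0164) with overlapping groups.

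Genes that IL-1 is known to induce in epithelium were mostly higher. Of 35 listed, 31 were tested, of which 21 rose, 8 fell and 2 did not pass, with a median log2 fold change of 0.47 beside 0.002 for all genes tested. The share that rose was 67.7% beside 26.9% of all genes, and the share that fell was 25.8% beside 27.4%. The chemokine CCL2 (log2 2.31), the acute phase gene SAA1 (1.40), TNFAIP2 (1.09) and mitochondrial superoxide dismutase SOD2 (0.84) rose. Among the falls were the cytokine IL6, from 26.8 ± 1.23 to 13.2 ± 0.366 CPM (± SD over 3 libraries each; log2 −1.02 ± 0.085 SE, adjusted p = 1.97e-17, edgeR), and the growth factor CSF2 (log2 −0.64). The antimicrobial peptide gene DEFB4A (−1.14) and the NF-kB inhibitor TNFAIP3 (−0.28) fell too. Many of these genes also answer to TNF or interferon, and several were known to change here when the list was made, so the count does not single out IL-1.

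**Figure D5:**
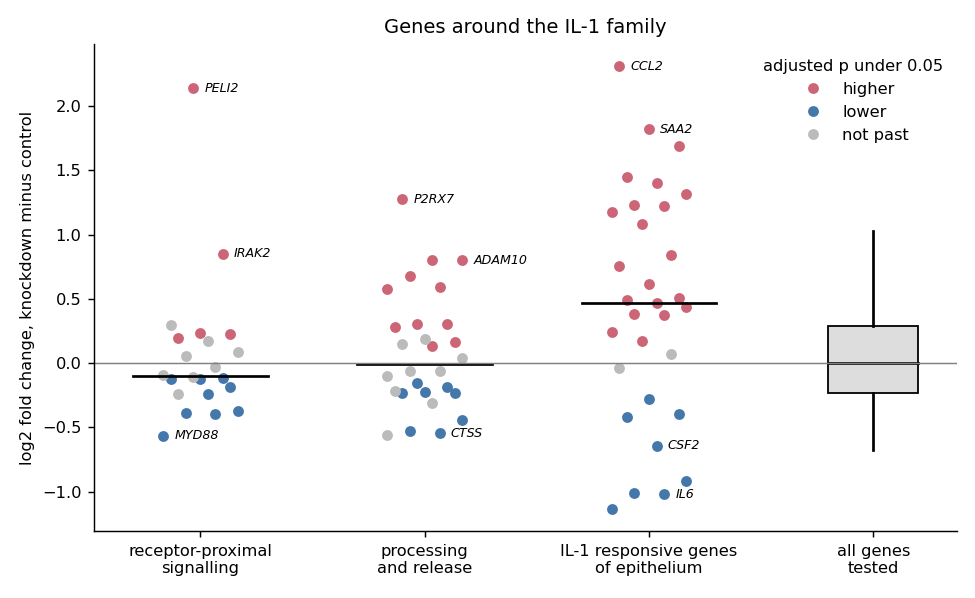
Log2 fold change (knockdown minus control) of the tested genes of 3 lists, as points coloured by the test result, with the median as a line. The box for all genes tested spans its 25th to 75th percentile and its whiskers the 5th to 95th. The list of IL-1 responsive genes, many of which also answer to TNF or interferon, has the highest median, at 0.47. It was made with several of these changes known.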

How the data were processed

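The authors deposited whole-number counts per gene and FPKM values for 30947 genes in 6 libraries. The submitters' processing notes name GRCh38.p13 and Bowtie, without role or version. How reads were counted, with which annotation and strand setting, is not given in the sources used here, which leaves overlapping and antisense genes unresolved. Columns carry other names than the samples and were matched by prefix and number. Coordinates are those of the deposited tables.

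The count fit used R 4.3.3 and edgeR 4.0.16, with filterByExpr (minimum count 10), TMM scaling and a quasi-likelihood F test of knockdown against control without covariates. Benjamini-Hochberg adjustment ran over the 15374 genes tested, at 0.05. Depth was 16333542 to 18955230 counts per library. The members and lists were chosen with earlier results of these data known. Named are the members, the rest of the family, DAZAP1, up to 4 genes per list and direction with the smallest adjusted p, genes within 100 kb of a member, and the 3 genes most like the member with the largest rise or fall. Any other gene was picked after its values were seen. Alternatives were DESeq2 1.42.0, limma 3.58.1 (voom, and log2 FPKM with a pseudocount of 1 or 0.1), other scalings and filters, the replicate number as a block, and each library left out.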

Additional observations from a re-analysis of the deposited data

How the results depend on the processing

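The members and lists were recomputed under 17 alternatives. DAZAP1, IL1A, IL1B, IL1R2 and IL1RL1 kept direction and call in all 17, with log2 fold changes of 0.21 to 0.30 for IL1A, −0.37 to −0.30 for IL1B, −1.57 to −1.25 for IL1R2 and −2.58 to −1.58 for IL1RL1. All alternatives reuse the libraries on which the members were selected, so this is no independent check of their changes. The count of members lower stayed at 3, and that of members higher went from 1 to 2 with upper-quartile scaling, where IL18 crossed the threshold (log2 0.22, and 0.10 to 0.22 over all alternatives). IL1RAP, near 0, changed sign with upper-quartile scaling (0.0442), library size only (0.0309), the stricter filter (0.00311) and limma on log2(FPKM + 1), log2(FPKM + 0.1) and log2(FPKM + 1) with a mean FPKM filter (0.0267, 0.0311 and 0.0267), and ran from −0.0298 to 0.00946 with 1 library left out. IL1RN ran from −0.22 to 0.0733 with 1 library left out. In the rest of the family the higher count went from 1 to 0 with DESeq2 and without a filter, and the lower count from 2 to 1 with limma on log2(FPKM + 0.1) or with the mean FPKM filter. With 1 library left out they were 0 to 1 and 1 to 2. The causes were not tested. For 36 named genes outside the members, alternatives added after seeing the data, 30 kept call and direction in every setting, 6 lost the call in at least 1 (DLAT, IL18R1, NKAPD1, NT5DC4, SIGIRR and PELI3) and 0 reversed. With a replicate block, 1 member was higher and 3 were lower, and over all genes 4101 rose and 4206 fell, beside 4131 and 4208 without it. Same-numbered libraries did not deviate together (correlations 0.0028, −0.00078 and −0.0063), and not every library correlated best with its own number. Counts limit what can be seen of IL36G and IL33. A single value compared over 3 and 3 libraries has 0.1 as its smallest exact permutation p.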

Other observations

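Within 100 kb of the members, 31 genes outside the family were in the count table and 15 were tested, of which 4 rose, 5 fell and 6 did not pass (edgeR, adjusted p under 0.05). The share called, 60%, was near the 54.2% of all genes tested. Besides LINC01127 and MAP4K4, the larger changes were in PSD4, a guanine nucleotide exchange factor gene 23309 bp from IL1RN, which fell from 46.4 ± 2.69 to 31.8 ± 1.57 CPM (± SD over 3 libraries each; log2 −0.55, edgeR adjusted p = 1.91e-12), and in TIMM8B near IL18 (log2 −0.46) and PTS, an enzyme of tetrahydrobiopterin synthesis, near IL18 (−0.44). CKAP2L, next to IL1A, was at −0.08 and did not pass. PAX8 (−0.31) fell, and DLAT (0.19), NKAPD1 (0.23) and NT5DC4 (0.35) rose. These last 3 calls were lost in 1, 2 and 4 of 6 fits that left out 1 library, with edgeR adjusted p up to 0.0534 for DLAT, 0.198 for NKAPD1 and 0.202 for NT5DC4.

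By correlation of log2 CPM over the 6 libraries, the genes most like IL1RL1 among 10770 with a mean of at least 5 CPM were the RNA demethylase ALKBH5 (Pearson r = 0.999), PIGX (0.999) and the mitochondrial elongation factor TUFM (0.998). These 3 genes had log2 fold changes of −0.49, −0.55 and −0.28, against −2.48 for IL1RL1. The correlations are a description over 6 libraries that fall into 2 groups. IL36G had the largest rise by value, which did not pass, and was most like RAP2B (r = 0.988), PDSS2 (0.977) and RCN2 (0.977), none of which passed.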
